A study of Mus musculus with 40 samples.

Results

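The genes described here mark lymphocytes and plasma cells: the T cell genes *Cd4*, *Cd3e*, *Cd3g* and *Cd8a*, the B cell gene *Cd79b*, and the antibody genes *Ighm*, *Ighg2c*, *Ighg2b*, *Igkc* and *Jchain*. They are 10 named genes, taken by gene name from 2 tables of expression values that together list 17831 genes. The female table lists 10 of the 10 among its 17223 genes. The male table lists 8 among its 17646 genes and holds no row for *Cd3e* or *Ighg2b*. *Cd4*, *Cd3e*, *Ighg2c* and *Jchain* are also named in the study's text, which drew them from these same libraries, so their counts below are not independent evidence of a direction.

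Hearts of male and female mice gave 1 library of polyA RNA each. CM-Il11-Tg mice carry the α-MHC-MerCreMer (MCM) transgene, in which a cardiac myosin promoter drives a Cre recombinase that tamoxifen activates, together with *Rosa26-Il11*, which makes the mouse cytokine IL11 once a stop cassette has been removed. Both transgenes were heterozygous, on a C57BL/6N (*Rosa26-Il11*) and a C57BL6/J (MCM) background, and tamoxifen was injected on 5 consecutive days from 8 weeks of age. The induced groups are CM-Il11-Tg hearts taken 1, 3 or 6 weeks later. Control hearts came from littermates with the MCM transgene and no *Rosa26-Il11* transgene that also received tamoxifen, and uninduced hearts came from CM-Il11-Tg mice without tamoxifen. The labels give both of these groups the time point Baseline, so the weeks after tamoxifen and the age of the mice cannot be told apart. Each group held 4 libraries, except male controls and male hearts at 6 weeks, which held 3 each. The labels name heart as the tissue and the study's methods name the left ventricle. *Il11* itself was at 0 to 0.166 CPM in controls, 15.5 to 49.1 in uninduced hearts and 328 to 819 in induced hearts. The uninduced hearts thus already held *Il11* above control. CPM here means read counts scaled by a factor per library, and the columns differ in their sums, from 817395 to 1196278.

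T cells recognise antigen through a receptor that signals through the CD3 chains, and the co-receptors CD4 and CD8 divide them into helper and cytotoxic cells. B cells carry an immunoglobulin on their surface, which signals through the CD79 pair, and once activated they can become plasma cells that secrete antibody in bulk. An antibody joins a pair of heavy chains, whose constant part sets the class (IgM, IgG2b, IgG2c, IgA), with a pair of light chains, most often kappa in the mouse. The healthy heart holds few lymphocytes beside its many macrophages, and IgM is the first class a B cell makes, before switching to IgG or IgA.

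*Ighg2c* (chr12:113248945-113252552) and *Ighg2b* (chr12:113266585-113271553) lie on the minus strand of GRCm39 as neighbours in the heavy chain locus. Their hinge exons, the short exons that join the antigen-binding arms to the stem, are shown because they tell reads of these similar genes apart. Each is written 5′ to 3′ on the gene's strand from the GRCm39 reference, with the bases that differ between them in capitals.
Ighg2c: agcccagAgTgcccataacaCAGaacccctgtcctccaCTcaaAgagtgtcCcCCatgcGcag
Ighg2b: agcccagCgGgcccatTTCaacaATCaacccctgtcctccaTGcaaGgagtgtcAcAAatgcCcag
The first has 63 bases (chr12:113251883-113251945) and the second 66 (chr12:113270881-113270946). The alignment holds 51 identical bases, 12 mismatches and a gap of 3 bases. Over all exons of *Ighg2c*, 40 of 1266 distinct stretches of 60 bases, the length of a read, also occur in *Ighg2b* (3.16%), and none occurs in *Ighm*, *Ighd*, *Igha* or *Ighg1*. Of the stretches of *Ighg2b*, 1.53% occur in *Ighg2c* and 1.11% in *Ighg3*. How the counting treated reads that match both genes is not given in the sources used here, so a small part of either count is uncertain.

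Male libraries held 16663513 to 65333832 reads over the genes of the table, and female libraries 19147947 to 30929192. At this depth several members had few reads, and *Cd3g* had 1 to 13 per library in male controls. The 2 tables were scaled apart and were compared within a sex only. In 2 male libraries the title and tags contradict the description (control against 6 weeks, in opposite order), and neither entered a test. A female library stood apart as well. At 3 weeks, replicate 3 held the highest value of its group for 10 of 10 members, and its summed CPM over them was 138.57 against 32.18 to 45.17 in the other 3. limma calls that rest on it are given with and without it. The count-based tests edgeR and DESeq2 were run only with it in place. The summed level of 6 cardiomyocyte genes, *Myh6* and *Tnnt2* among them, was 48810 to 59120 CPM in male controls and 29950 to 40280 at 6 weeks, with no overlap. In females it was 33250 to 50880 CPM in controls and 29700 to 38760 at 6 weeks, with medians of 44720 and 32220. These levels are not shares of a library. All listed genes together sum to 1181923 to 1196278 in female controls and 848402 to 942588 at 6 weeks. In males they sum to 1063756 to 1193422 and 906746 to 1165099. Of the 6 genes, limma called 1 lower in males, *Ryr2*, and 2 in females, *Ryr2* and *Myl2*, at 6 weeks, and the part of this shift in the members' differences was not tested.

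Members of the list rose after induction in both sexes, and *Cd4* and *Ighm* passed at each of the 3 weeks in both. Each week was compared with control in limma on log2(CPM + 0.5), with adjusted p under 0.05 over all tested genes as the limit and no minimum fold. In males at 1 week, 3 of the 8 listed members were higher (*Cd4*, *Cd79b* and *Ighm*), where 18.9% of all 16931 tested genes were. At 3 weeks 2 were (*Cd4* and *Ighm*), against 13.2% of all genes, and at 6 weeks 6 were (*Cd4*, *Cd79b*, *Ighm*, *Ighg2c*, *Igkc* and *Jchain*), against 16.2%. In females at 1 week 2 of 10 members were higher (*Cd4* and *Ighm*), against 15.3% of the 16956 tested genes. At 3 weeks 7 were (*Cd4*, *Cd3e*, *Cd79b*, *Ighm*, *Ighg2b*, *Igkc* and *Jchain*), against 16.8%, and 3 without replicate 3 of that group. At 6 weeks 7 were, with *Cd3g* in the place of *Ighg2b*, against 21.7%. No member was called lower in any of these comparisons, where 1372 to 2475 of the 16931 tested genes were in males and 2227 to 3567 of 16956 in females. Members with few reads in controls had little room to be called lower.

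These counts come with 2 limits. The test covered genes at 0.5 CPM or more in at least 3 libraries, and 3 members in males and 4 in females passed it with no control library at that level, so the counts cannot stand as evidence for the list. The male counts also rest on where the contradicted libraries are left: placed by their descriptions, 6 of 8 members passed at 6 weeks, and placed by their titles and tags, 0 did. The column names of both libraries follow the descriptions. The summed level of 9 macrophage genes was 254.4 CPM in the library described as control and 925.3 in that described as 6 weeks. It was 211.7 to 340.6 in the labelled male controls and 871.1 to 1225 at 6 weeks. Which label is right was not tested. Because these are whole-tissue samples, more cells of a type and more RNA per cell cannot be told apart.

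**Figure D1:**
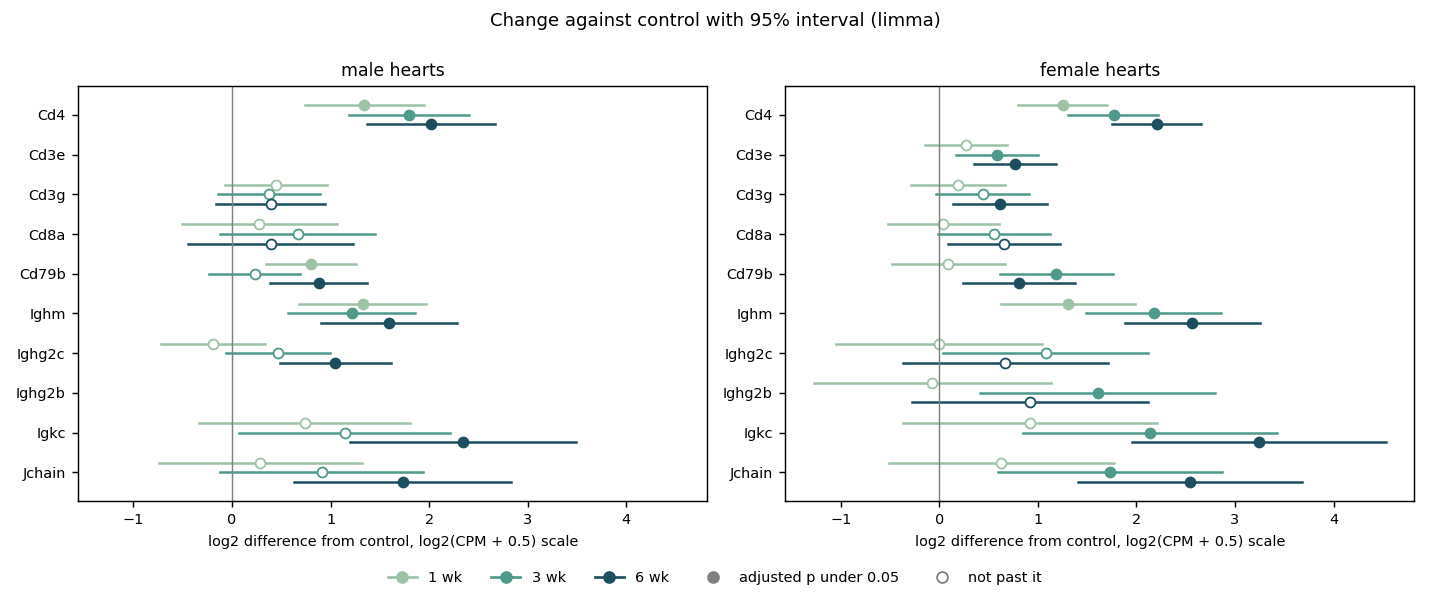
Log2 difference from control (x axis, log2(CPM + 0.5) scale) for each member (y axis) at 1, 3 and 6 weeks in male (left) and female (right) hearts, with 95% intervals from limma; filled points passed an adjusted p of 0.05. The largest difference is that of *Igkc* in females at 6 weeks (3.25), and the male panel has no points for *Cd3e* and *Ighg2b*, which that table does not list.

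*Cd4* (chr6:124841655-124874758, minus strand) encodes the co-receptor of helper T cells, which some mouse dendritic cells and macrophages also make. Its CPM in male controls was 1.16, 0.833 and 1.68. It was 2.14, 7.38, 4.46 and 2.77 at 1 week, 5.98, 5.29, 4.96 and 5.26 at 3 weeks, and 6.48, 5.51 and 7.16 at 6 weeks. Every induced male library lay above every control. The group mean rose from 1.22 ± 0.425 (SD, n = 3) to 4.19 ± 2.34 (n = 4), 5.37 ± 0.43 (n = 4) and 6.38 ± 0.83 (n = 3), which is 5.21-fold at 6 weeks. On the log2(CPM + 0.5) scale the difference from control was 1.34 (SE 0.29) at 1 week, 1.80 (SE 0.29) at 3 weeks and 2.02 (SE 0.31) at 6 weeks, with limma adjusted p-values of 0.0015, 0.000128 and 6.75e-05.

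Females showed the same order of groups for *Cd4*. Controls held 1.12, 1.02, 1.70 and 1.11 CPM, and libraries at 1 week 2.60, 4.91, 4.52 and 2.82. At 3 weeks the values were 5.99, 4.37, 7.17 and 4.32, and at 6 weeks 6.26, 7.90, 11.4 and 5.33. No induced library overlapped the controls, and the mean at 6 weeks was 7.72 ± 2.66 CPM (SD, n = 4), 6.24-fold the control mean of 1.24 ± 0.313. The log2 difference was 1.25 (SE 0.217) at 1 week, 1.77 at 3 weeks and 2.21 at 6 weeks (limma adjusted p = 0.000184, 2.44e-06 and 8.52e-08). *Cd4* was also the only member to pass between weeks, 6 against 1 in females, with a log2 difference of 0.95 (SE 0.217, limma adjusted p = 0.0315). That call was lost without any of replicates 1 or 4 at 1 week and 2 or 3 at 6 weeks, where the adjusted p ran from 0.112 to 0.145.

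**Figure D2:**
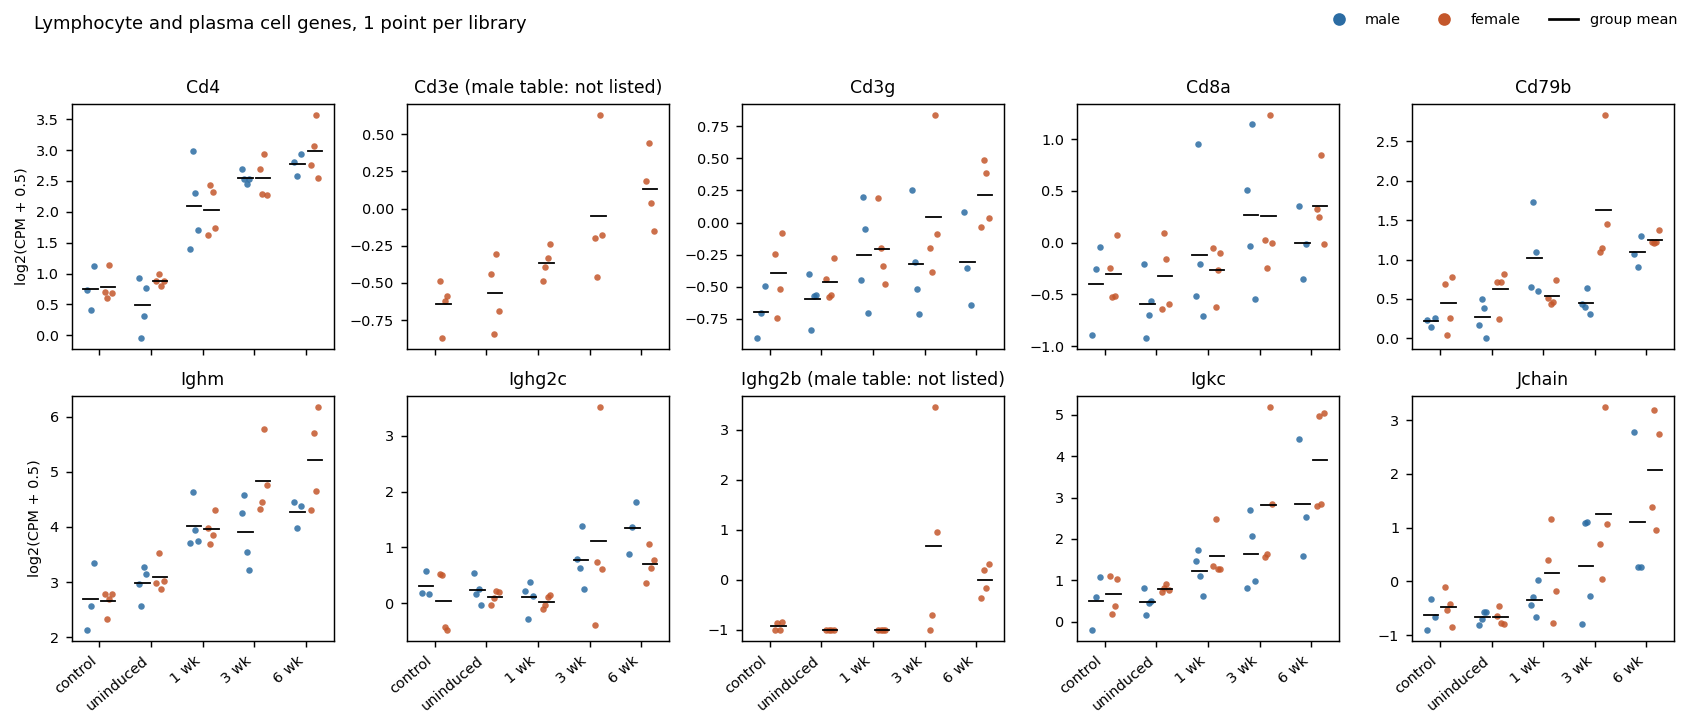
Expression of each member as log2(CPM + 0.5) (y axis) in every labelled library, by group (x axis) and sex (colour), with a bar at the group mean. Points for *Cd4* and *Ighm* climb from control to 1 week, and *Igkc* and *Jchain* spread more at 3 and 6 weeks than in controls. *Ighg2b* and *Ighg2c* spread widely in females at 3 weeks, where 1 library is the highest of its group in all 10 panels.

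The CD3 chains had few reads in every group. *Cd3e* (chr9:44910037-44920925, minus strand), a signalling chain of the T cell receptor complex, held 0.215, 0.0484, 0.15 and 0.166 CPM in female controls, which is 1 to 5 reads. At 3 weeks it held 0.372, 0.228, 1.05 and 0.382 CPM, and at 6 weeks 0.634, 0.859, 0.527 and 0.401, or 13 to 20 reads. Both weeks lay wholly above the controls. The log2 difference was 0.59 (SE 0.2, limma adjusted p = 0.0296) at 3 weeks and 0.77 (SE 0.2, adjusted p = 0.00438) at 6 weeks. The call at 3 weeks was lost without replicate 3 of that week (0.36, limma adjusted p = 0.143) and without control replicate 2 or 3 (0.0887 and 0.0538). The annotation places *Gm48719* and *Gm48720* over *Cd3e*, 1 of them on the opposite strand, and the strand setting of the counting is not stated, so their reads cannot be told apart from those of *Cd3e*.

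*Cd3g* (chr9:44880870-44891735, minus strand), a second chain of the same complex, held 0.0375, 0.114 and 0.212 CPM in male controls and 0.558, 0.282 and 0.14 at 6 weeks. The male groups overlapped, with a log2 difference of 0.39 (95% interval -0.16 to 0.94, limma adjusted p = 0.292). In females it held 0.344, 0.0968, 0.2 and 0.443 CPM in controls and 0.476, 0.902, 0.808 and 0.524 at 6 weeks. Those groups did not overlap, the lowest library at 6 weeks standing just above the highest control, and the log2 difference was 0.62 (SE 0.228, limma adjusted p = 0.0357). The call was lost without control replicate 2 or 3 and without replicate 2 or 3 at 6 weeks (adjusted p from 0.0788 to 0.113).

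*Cd8a* (chr6:71350411-71356157, plus strand), a chain of the cytotoxic co-receptor, passed in no comparison. Male controls held 0.0375, 0.341 and 0.472 CPM and male hearts at 6 weeks 0.777, 0.282 and 0.49. In females the control range was 0.194 to 0.554 CPM, the range at 3 weeks 0.342 to 1.85 and the range at 6 weeks 0.493 to 1.3. The groups overlapped in both sexes. The female log2 difference at 6 weeks was 0.66 (SE 0.272, limma adjusted p = 0.0574), and it passed under 3 of 18 alternatives, whose adjusted p ran from 0.0302 to 0.18.

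The other T cell genes were looked at beside these members. Of 22 genes of a T cell list that leaves the members out, 18 are listed and 14 were tested in males. There 1 was higher at 6 weeks (*Zap70*, a kinase of the receptor) and none lower, where 16.2% of all tested genes were higher. The male median log2 difference was 0.51 against -0.006 over all genes. In females 19 are listed and 17 were tested, and 4 were higher at 6 weeks, a share near the 21.7% of all tested genes. These were *Lck*, the kinase that starts receptor signalling, *Trbc2* and *Trac*, constant parts of the receptor, and *Cd2*, an adhesion receptor. *Ctla4*, an inhibitory receptor, was lower, with a log2 difference of -1.90 (SE 0.328, limma adjusted p = 0.000107). The female median was 0.31, against -0.02 over all genes. At 1 week 1 of the 14 was higher and 3 were lower in males, where 3196 and 2475 of 16931 tested genes were. In females 0 of the 17 were higher and 1 was lower at that week, where 2586 and 2227 of 16956 were. The list medians at 1 week were 0.389 in males and -0.11 in females. *Trac* held 0.832 to 2.32 CPM in females at 6 weeks and 0.339 to 0.998 in controls. The summed level of the listed T cell genes was 12.39 to 16.1 CPM in female controls and 14.23 to 21.26 at 6 weeks, and 9.069 to 15.03 against 12.36 to 16.18 in males, so the sums overlapped in both sexes while *Cd4* did not.

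Genes of macrophages and dendritic cells were set beside *Cd4* at the same weeks. All 9 genes of a macrophage list were higher at 1, 3 and 6 weeks in both sexes. Over all tested genes the share was 13.2 to 18.9% in males and 15.3 to 21.7% in females. The macrophage sum rose from 211.7 to 340.6 CPM in male controls to 871.1 to 1225 at 6 weeks, and from 192.7 to 250.9 to between 1061 and 1210 in females. Of 8 dendritic cell genes, 4 were higher and 1 lower in males at 1 week, where 18.9% of all tested genes were higher. In females 3 were higher at that week, against 15.3%. At 6 weeks 4 were higher in males, against 16.2%, and 6 in females, against 21.7%, with *Zbtb46* lower in females. *Cd209a*, a lectin of monocyte-derived dendritic cells, rose by a log2 difference of 2.80 in males and 3.31 in females, and *Itgax*, which encodes CD11c, by 2.05 and 2.67. The summed dendritic cell level was 21.55 to 28.71 CPM in male controls, 19.78 to 20.41 at 1 week and 29.45 to 31.81 at 6 weeks. In females it was 20.31 to 24.03 CPM in controls, 20.34 to 22.12 at 1 week and 25.77 to 34.33 at 6 weeks. The part these cells have in the rise of *Cd4* was not tested.

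*Cd79b* (chr11:106202167-106205588, minus strand) encodes a signalling chain of the B cell receptor. In males it held 0.675, 0.606 and 0.7 CPM in controls, 1.07, 2.81, 1.63 and 1.01 at 1 week, 0.848, 0.819, 1.05 and 0.736 at 3 weeks, and 1.6, 1.38 and 1.96 at 6 weeks. All 3 weeks lay above the controls, with 3 weeks the lowest of them. The log2 difference was 0.80 (SE 0.221, limma adjusted p = 0.00867) at 1 week, 0.23 (adjusted p = 0.524) at 3 weeks and 0.88 (SE 0.236, adjusted p = 0.00913) at 6 weeks. In females the values were 1.12, 0.532, 0.7 and 1.22 in controls and 0.925, 0.856, 0.878 and 1.17 at 1 week. They were 1.64, 1.71, 6.65 and 2.23 at 3 weeks and 1.82, 1.80, 1.83 and 2.1 at 6 weeks, both above every control. The female log2 differences were 1.19 (SE 0.273, limma adjusted p = 0.00235) at 3 weeks, 0.78 without replicate 3 (adjusted p = 0.00348), and 0.81 (adjusted p = 0.0226) at 6 weeks. The call at 6 weeks was lost without control replicate 2 or 3 or replicate 4 at 6 weeks (adjusted p from 0.0521 to 0.0768).

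*Ighm* (chr12:113382178-113386350, minus strand), the constant region of the IgM heavy chain, had the most reads of the 10 members in every group. In males it held 3.90, 5.42 and 9.72 CPM in controls, 12.5, 24.3, 15 and 13 at 1 week, 18.6, 23.5, 11.2 and 8.83 at 3 weeks, and 21.5, 15.3 and 20.4 at 6 weeks. Only replicate 4 at 3 weeks fell within the control range. The mean was 6.34 ± 3.02 CPM (SD, n = 3) in controls and 19.1 ± 3.35 (n = 3) at 6 weeks, a log2 difference of 1.59 (SE 0.33, limma adjusted p = 0.00125). At 1 week the difference was 1.33 (SE 0.309, limma adjusted p = 0.00269) and at 3 weeks 1.22 (adjusted p = 0.00709), and the latter did not pass without control replicate 1 (adjusted p = 0.0607).

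In females *Ighm* was above control at each week, and limma called no difference between weeks. Controls held 6.37, 4.5, 6.00 and 6.43 CPM and libraries at 1 week 15.2, 12.4, 14.1 and 19.3. At 3 weeks it held 19.5, 21.4, 54.1 and 26.5, and at 6 weeks 19.3, 51.5, 24.7 and 71.9. No induced library overlapped the controls, and at 6 weeks the libraries fell into a lower pair near the level at 3 weeks and a higher pair. The log2 difference from control was 1.31 (SE 0.328, limma adjusted p = 0.00488), 2.18 (adjusted p = 3.19e-05) and 2.56 (adjusted p = 3.08e-06) at 1, 3 and 6 weeks. Without replicate 3, the difference at 3 weeks was 1.86 (limma adjusted p = 0.000159). For 6 against 1 week, limma's 1.25 (adjusted p = 0.0733) missed the limit, while edgeR and DESeq2 on the recovered reads both gave 1.46 (adjusted p = 0.0455 and 0.016) and limma without replicate 1 at 6 weeks gave 1.55 (adjusted p = 0.0138).

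*Ighg2c*, the IgG2c heavy chain of C57BL/6 mice, rose in males at 6 weeks and did not pass at 1 or 3 weeks. Controls held 0.637, 0.985 and 0.619 CPM, and hearts at 1 week 0.669, 0.323, 0.798 and 0.599. At 3 weeks it held 1.23, 1.06, 2.1 and 0.699, and at 6 weeks 1.34, 2.08 and 3.03, above every control and every library at 1 week. The log2 difference at 6 weeks was 1.05 (SE 0.27, limma adjusted p = 0.00689) from control and 1.24 (SE 0.253, adjusted p = 0.0527) from 1 week, which just missed the limit. That second difference passed without replicate 1 at 6 weeks (1.48, adjusted p = 0.0226). In females it passed in no limma comparison with all libraries. There controls held 0.947, 0.919, 0.25 and 0.222 CPM, hearts at 3 weeks 0.26, 1.18, 10.9 and 1.03, and hearts at 6 weeks 0.793, 1.59, 1.05 and 1.2. A single library carried the female mean at 3 weeks, 3.35 CPM with replicate 3 and 0.822 without it. limma gave a log2 difference of 1.08 at 3 weeks (adjusted p = 0.107), 0.28 without replicate 3 (adjusted p = 0.501) and 1.59 without replicate 1 (adjusted p = 0.0151). edgeR and DESeq2 on the recovered reads, with replicate 3 in place, called that week (adjusted p = 0.0165 and 0.0019).

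*Ighg2b*, the IgG2b heavy chain and listed in females only, was nearly without reads before 3 weeks. Controls had 0, 1, 0 and 1 reads, and the 4 uninduced libraries and the 4 libraries at 1 week had 0. At 3 weeks the libraries had 0, 3, 260 and 49 reads (0, 0.114, 10.5 and 1.44 CPM), and at 6 weeks 7, 15, 11 and 24 reads (0.277, 0.644, 0.386 and 0.74 CPM). All 4 libraries at 6 weeks had reads, and replicate 3 held 87.08% of the sum at 3 weeks. With 3 reads per control library as the floor, which is 0.166 CPM at most, the mean at 6 weeks was at least 3.08-fold higher, and the mean at 3 weeks at least 18.1-fold, or 3.12-fold without replicate 3. These bounds cover counting error only. In limma the log2 difference was 1.61 (adjusted p = 0.0383) at 3 weeks, lost without replicate 3 (0.68, adjusted p = 0.113), without replicate 4 and without any one control (0.0628 to 0.0858), and 0.92 (adjusted p = 0.203) at 6 weeks, where the groups did not overlap. With a pseudocount of 0.1 the latter was 2.24 (limma adjusted p = 0.0468), and it also passed when only those 2 groups were fitted (adjusted p = 0.00225).

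*Igkc* (chr6:70703419-70703950, plus strand) encodes the constant part of the kappa light chain. In males it held 0.375, 1.02 and 1.63 CPM in controls, 2.28, 2.81, 1.66 and 1.05 at 1 week, and 1.27, 6.00, 3.68 and 1.47 at 3 weeks. At 6 weeks it held 20.8, 2.51 and 5.29, all above the controls. The log2 difference at 6 weeks was 2.34 (SE 0.548, limma adjusted p = 0.00335), and 1.56 without replicate 1 (adjusted p = 0.0221). At 1 and 3 weeks the differences of 0.74 and 1.14 did not pass (limma adjusted p = 0.286 and 0.125).

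In females *Igkc* passed at 3 and 6 weeks. Controls held 1.64, 0.629, 0.8 and 1.55 CPM, and hearts at 1 week 2.03, 5.10, 1.92 and 1.91. At 3 weeks the values were 2.46, 2.62, 36.1 and 6.70, and at 6 weeks 6.50, 30.9, 6.67 and 32.5. The control range was left by all 12 induced libraries, and at 6 weeks the same higher pair as for *Ighm*, replicates 2 and 4, stood well above the other pair. The log2 difference was 2.14 (SE 0.617, limma adjusted p = 0.0116) at 3 weeks, 1.35 without replicate 3 (adjusted p = 0.0505), and 3.25 (adjusted p = 0.000292) at 6 weeks. Without replicate 2 or 4, the difference at 6 weeks was 2.89 and 2.87 (limma adjusted p = 0.0019 and 0.00171). The annotation places *Gm30211* and *Gm68839* over *Igkc*, 1 on each strand, so reads of these genes cannot be told apart from its own.

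*Jchain* (chr5:88667668-88675750, minus strand) makes the joining chain that links the units of secreted IgM and IgA. Male controls had 0.0375, 0.303 and 0.13 CPM, or 1 to 8 reads. At 3 weeks it held 0.0771, 1.64, 1.64 and 0.331, and at 6 weeks 6.39, 0.706 and 0.7. Every library at 6 weeks lay above the controls, and replicate 1 held 81.96% of their sum. The log2 difference was 1.73 (SE 0.526, limma adjusted p = 0.0191), lost without that replicate (0.89, adjusted p = 0.125), without control replicate 1 (0.064) and with only the 2 groups fitted (0.074). In females *Jchain* held 0.431, 0.194, 0.25 and 0.0554 CPM in controls, 1.12, 0.532, 8.98 and 1.59 at 3 weeks, and 2.1, 8.63, 1.44 and 6.23 at 6 weeks. Both weeks lay above every control. The log2 difference at 6 weeks was 2.54 (SE 0.546, limma adjusted p = 0.000913), and at 3 weeks it was 1.74 (adjusted p = 0.0195), or 1.07 without replicate 3 (adjusted p = 0.0936). The call at 3 weeks was also lost without control replicate 4 (limma adjusted p = 0.0523).

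Libraries with much *Igkc* and *Jchain* differed in the antibody class and B cell genes that went with them. In females at 3 weeks, replicate 3 held the B cell genes *Cd79a* at 7.13 CPM and *Ms4a1* (which encodes CD20) at 2.90, where the other 3 libraries held 0.595 to 0.836 and 0.264 to 0.532. It also held the heavy chains *Ighd* at 8.78 CPM and *Igha* at 17.3. In females at 6 weeks, replicates 2 and 4 held *Igkc* at 30.9 and 32.5 CPM against 36.1, *Ms4a1* at 0.43 and 0.277 and *Ighd* at 0.816 and 0.524. *Ighd* was chosen after its values were seen. *Igha*, the IgA heavy chain, was at 34.5 CPM in replicate 2 and at 0.277 in replicate 4, where *Ighm* was at 71.9. In males at 6 weeks, replicate 1 held *Igha* at 25.7 CPM beside its *Igkc* of 20.8, with *Cd79a* at 0.607, and *Igha* was at 0.141 and 1.66 in the other 2 libraries. Against control at 6 weeks, *Igha* had a log2 difference of 3.31 in females (SE 0.893, limma adjusted p = 0.0057) and 1.98 in males (SE 0.848, adjusted p = 0.092).

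**Figure D3:**
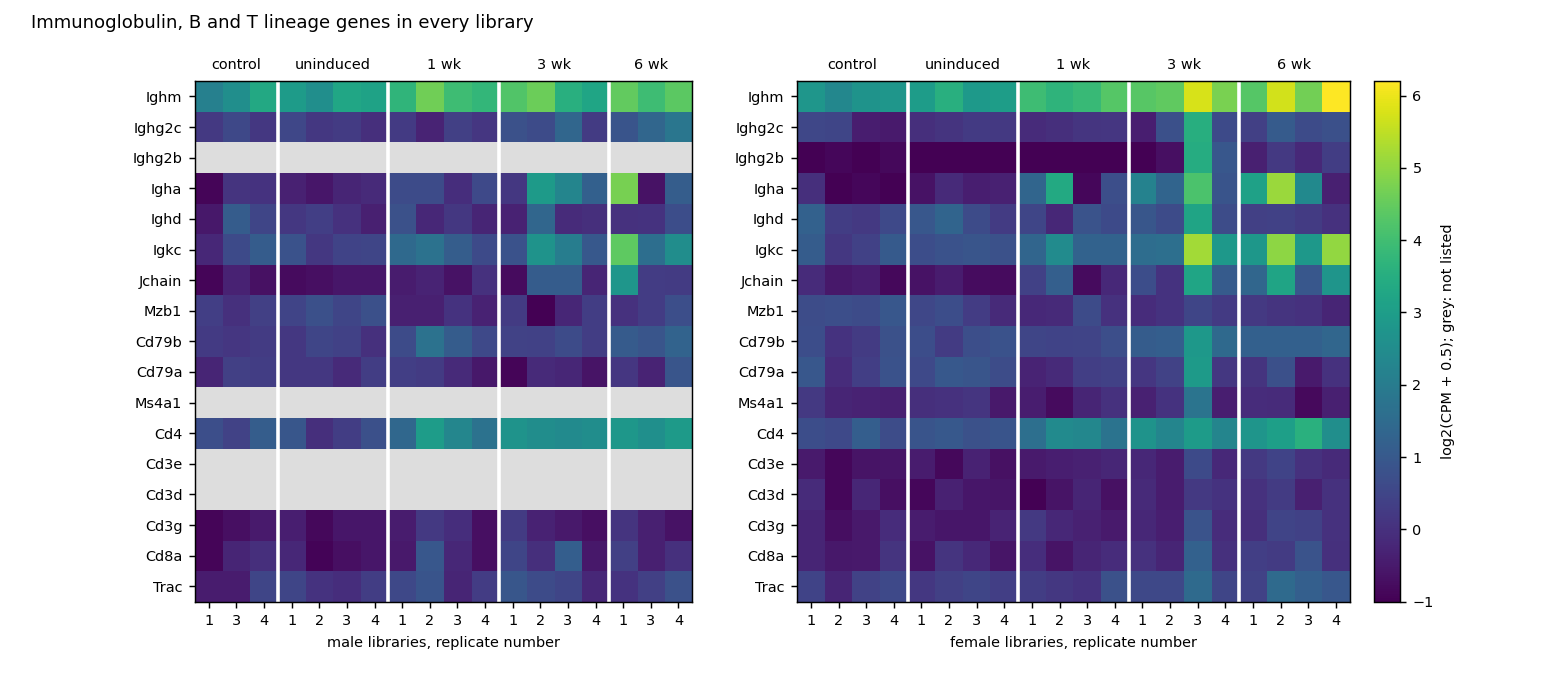
Heat map of log2(CPM + 0.5) (colour, from dark at low to yellow at high values; grey where the table lists no row) for antibody, B cell and T cell genes (rows) in every labelled library (columns, by group). The female library at 3 weeks with replicate number 3 is bright in *Ighd*, *Cd79a* and *Ms4a1* as well as in *Igkc*, while those at 6 weeks with numbers 2 and 4 are bright in *Ighm*, *Igkc* and *Jchain* and dark in *Ms4a1*, and *Igha* is brightest in number 2 (34.5 CPM).

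B cell genes outside the members were counted from a list of 15. In males 8 are listed and 7 were tested, of which 2 were higher at 6 weeks, *Spib* and *Bank1*, where 16.2% of all genes tested were higher. In females 11 were tested and 3 were higher, *Spib*, *Bank1* and *Fcrla*, where 21.7% of all genes were. *Spib*, which plasmacytoid dendritic cells also use, had log2 differences of 1.45 in males and 1.57 in females. The defining genes *Cd79a* and *Ms4a1* had log2 differences of -0.40 (SE 0.441, limma adjusted p = 0.482) and -0.16 (adjusted p = 0.733) in females at 6 weeks. The median over the list was 0.11 in males and -0.31 in females. The summed B cell list ran from 6.678 to 11.24 CPM in female controls and from 8.008 to 11.26 at 6 weeks, and at 3 weeks from 9.576 to 49.75, the last in replicate 3.

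Of the plasma cell list, 6 of 9 tested genes in males and 6 of 10 in females were higher at 6 weeks, against 16.2% and 21.7% of all tested genes. In each sex 1 was lower, *Prdm1* in males (-0.70, adjusted p = 0.0288 in limma, named after its value was seen) and *Mzb1* in females. The risers included *Sdc1* (syndecan 1, also made by epithelial and stromal cells), with log2 differences of 2.77 and 2.93, *Slamf7* (also on NK cells and macrophages), with 1.57 and 2.38, and *Xbp1* and *Txndc5*, which serve the secretory pathway of many cells. *Mzb1*, which B and plasma cells use to assemble IgM, had a log2 difference of 0.12 in males (SE 0.274, limma adjusted p = 0.786) and of -0.73 in females (SE 0.2, adjusted p = 0.00613), at 0.339 to 0.634 CPM at 6 weeks against 1.05 to 1.44 in controls. The summed level of the listed plasma cell genes was 87.74 to 108.8 CPM in male controls and 175 to 240.3 at 6 weeks. In females it was 102.1 to 115.4 CPM in controls and 184 to 261.4 at 6 weeks. At 1 week it was already above every control, at 154.9 to 162.6 CPM in males and 145.6 to 214.2 in females. Of light chain and heavy chain variable genes, which every antibody also needs, 0 are listed in males and 1, *Igkv1-110*, in females.

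**Figure D4:**
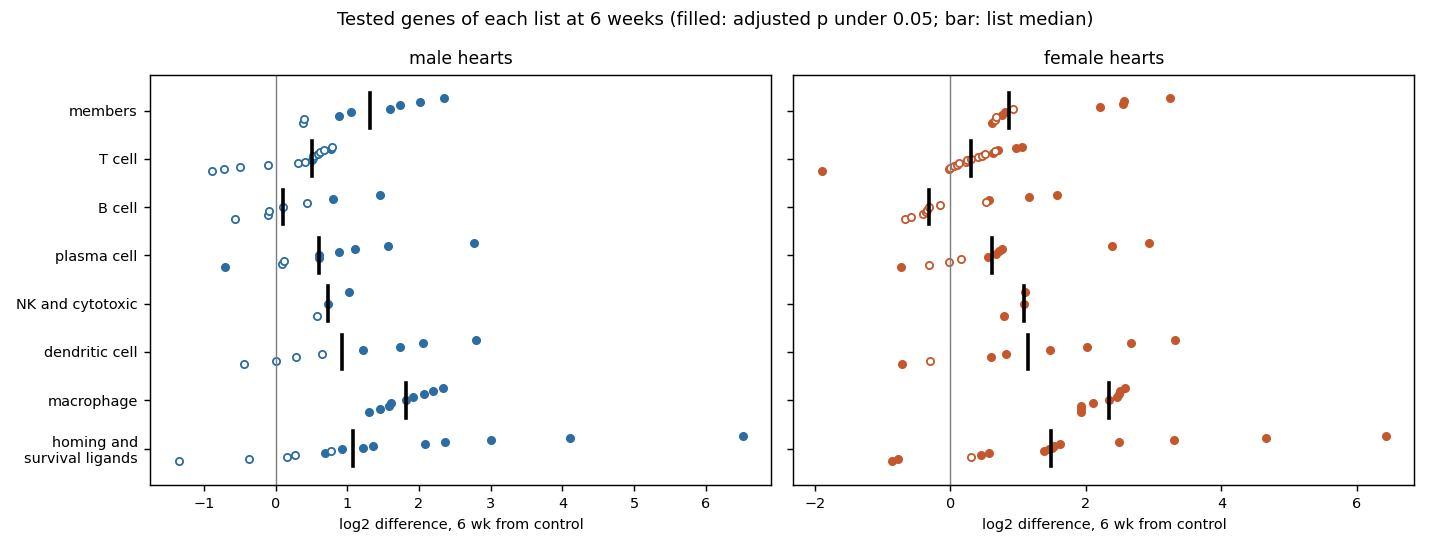
Log2 difference between 6 weeks and control (x axis) for each tested gene of the members and of 7 marker lists (y axis) in male (left) and female (right) hearts; filled points passed an adjusted p of 0.05 in limma and black bars are list medians. All macrophage genes lie to the right of 0, while the B cell and T cell lists lie on both sides of it.

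Signals that draw and keep lymphocytes rose in both sexes. Of 14 tested genes for homing and survival, 9 were higher in males at 6 weeks, against 16.2% of all tested genes, and 11 in females, against 21.7%. In females 2 were lower, *Il15* (-0.77) and *Cxcl9* (-0.86), both named after their values were seen. *Cxcl13*, the chemokine that attracts B cells into follicles, had 0 reads in the male controls and 39.5 to 58.5 CPM at 6 weeks. In females it rose from 0 to 0.0554 CPM in controls to between 30.5 and 63.1 at 6 weeks. *Ccl19*, which attracts T cells and dendritic cells, rose by log2 differences of 4.11 and 4.65, and *Tnfsf13b*, the B cell survival factor BAFF, by 3.00 and 3.30. *Tnfsf13b* held 1.1 to 1.42 CPM in male controls and 12.2 to 14.2 at 6 weeks. Within females at 6 weeks, *Cxcl13* was lowest, at 30.5 CPM, in replicate 4, the library with the most *Ighm*.

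The share of IgG2 among the heavy chain reads of the members was taken per library as a description. In females, *Ighg2b* and *Ighg2c* together made up 4 to 17.7% of the reads on *Ighm*, *Ighg2b* and *Ighg2c* in controls, 2.73 to 4% at 1 week and 2.63 to 5.5% at 6 weeks. At 3 weeks the share ran from 1.32 to 8.51% in 3 libraries and was 28.3% in replicate 3 (95% Wilson interval 26.3 to 30.4%, counting error only). Per base of exon that share was 29.7%. In males, where only *Ighg2c* is listed, the share was 5.98 to 15.4% in controls, 1.31 to 5.08% at 1 week, 4.31 to 15.8% at 3 weeks and 5.84 to 12.9% at 6 weeks. Control shares rest on 5 to 38 IgG2 reads, and their intervals reach across much of that range, up to 25.8% in female replicate 2.

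**Figure D5:**
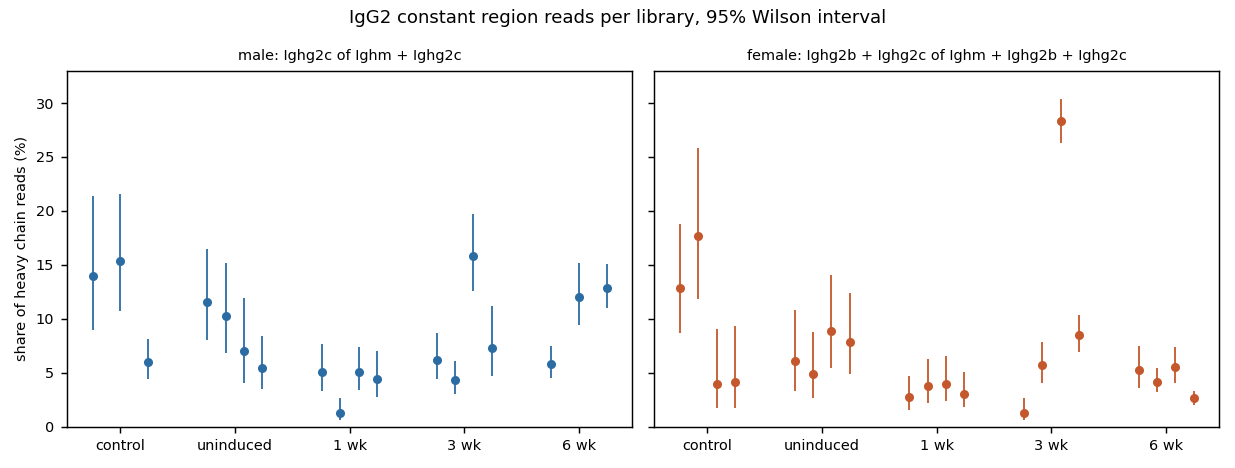
Percent of heavy chain reads (y axis) that fell on *Ighg2c* (males, left) or on *Ighg2b* and *Ighg2c* (females, right), out of these and *Ighm*, for each library by group (x axis), with 95% Wilson intervals. The female library at 28.3% at 3 weeks stands above all others, and libraries at 1 week sit at 5.08% or below in both sexes.

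Compared per length of exon, *Ighm* and *Igkc* were the highest members in each group. Mean *Ighm* was 3.36 CPM per kb in male controls and 10.1 at 6 weeks, and mean *Igkc* 1.90 and 17.9. In females *Ighm* moved from 3.09 to 22.2 CPM per kb and *Igkc* from 2.17 to 36.0. *Igkc* thus passed *Ighm* in the mean at 6 weeks in both sexes, with SDs of 18.5 (n = 3, male) and 27.3 (n = 4, female) that leave this order uncertain. In males the order rested on replicate 1, without which *Igkc* was at 7.33 CPM per kb and *Ighm* at 9.46. In females at 3 weeks mean *Igkc* was 22.5 CPM per kb and mean *Ighm* 16.1, and without replicate 3 they were 7.38 and 11.9, so that order rested on 1 library. By library, the ratio of *Igkc* to *Ighm* per exon base ran from 0.957 to 2.13 in females at 6 weeks and from 0.473 to 0.91 in controls. In males at 6 weeks it was 3.42, 0.583 and 0.919, and in controls 0.341 to 0.669. In controls the CD3 chains were the lowest, at 0.0369 CPM per kb for *Cd3g* in male controls and 0.0355 for *Cd3e* in female controls, apart from *Ighg2b*.

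Uninduced hearts, which carry both transgenes and received no tamoxifen, passed the test against control in no member. limma called 0 of 8 members in males, where 0.561% of all genes were higher, and 0 of 10 in females, where 2.41% were, with 0 members at an unadjusted p under 0.05 in either sex and 0 by edgeR or DESeq2. *Ighm* in females was at 6.79 to 11 CPM against 4.5 to 6.43 in controls, and these groups did not overlap (log2 difference 0.45, SE 0.328, limma adjusted p = 0.566). *Cd4* stood at 1.33, 1.48, 1.23 and 1.34 CPM in uninduced females, within the control range. In the same female hearts 8 of 9 macrophage genes were called higher than control.

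Between weeks, few members passed. In males limma called 0 of 8 members for 3 against 1 week (0.0118% of all genes were higher), 0 for 6 against 1 (0.13%) and 0 for 6 against 3 (0%). At an unadjusted p under 0.05 there were 2, 4 and 3, edgeR called 0 in each and DESeq2 0, 1 and 0. In females it called 0 of 10 for 3 against 1 week (0.165%; 5 unadjusted, 0 by edgeR and 3 by DESeq2), 1 for 6 against 1 (0.891%; 7 unadjusted, 2 by edgeR and 3 by DESeq2) and 0 for 6 against 3 (0%; 0 unadjusted, 0 by edgeR and 0 by DESeq2). For 6 against 1 week in females, 8 of 10 members did not overlap between the groups and were higher at 6 weeks, as were 4.09% of all genes tested, among them *Igkc* (log2 difference 2.33, SE 0.617, limma adjusted p = 0.0781) and *Ighm* (1.25, SE 0.328, adjusted p = 0.0733). Only *Cd4* of the 8 passed with limma. The 3 members that DESeq2 called in females for 3 against 1 week were *Cd79b*, *Ighg2c* and *Ighg2b*. Female replicate 3 held 54.36, 81.57 and 87.08% of their sums at 3 weeks, and DESeq2 was not run without it. These comparisons between weeks share libraries with those against control.

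The genes whose pattern was most like *Cd4* over the labelled libraries were *Cldn15*, *C6* and *Elfn1* in males (Pearson r = 0.962, 0.957 and 0.957, Spearman rho = 0.917, 0.886 and 0.897, over 18 libraries) and *Sfrp4*, *Lrrc32* and *Ptger3* in females (r = 0.98, 0.975 and 0.972, rho = 0.947, 0.946 and 0.958, over 20). For *Igkc* they were *Igha*, *Reg3a* and *Dlk1* in males (r = 0.89, 0.888 and 0.875, rho = 0.742, 0.833 and 0.857) and *Ltb*, *Adh7* and *Gnptg* in females (r = 0.935, 0.905 and 0.899, rho = 0.944, 0.887 and 0.905). *Ltb*, which encodes lymphotoxin beta, and *Igha* are lymphocyte genes. The libraries of a sex share their groups, and the values are a description with no test.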

How the data were processed

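Hearts of 40 mice were sequenced (60 bp paired-end reads, polyA selection). Per the study's methods, STAR and GRCm39 were used for alignment and featureCounts for counting per gene. The authors deposited the signal values as CPM, 1 table per sex, made from read counts and a scaling factor per library. Of the values, 100% lay within 0.001 of a whole multiple of the smallest value, from which whole reads were recovered. Replicates are separate mice (lowest chi-square per gene 6.78 over 54 pairs). Genes at 0.5 CPM or more in at least 3 labelled libraries of a sex (16931 male, 16956 female) entered a trended limma fit (3.58.1, R 4.3.3) of log2(CPM + 0.5) with all 5 groups, Benjamini-Hochberg adjusted. The pseudocount understates changes of low genes. The fit was tested on simulated data. Intervals are 95%. Alternatives were edgeR 4.0.16 and DESeq2 1.42.0 on recovered reads, other pseudocounts, filters, scalings and fits, and leaving out each library. Named are all members, up to 6 genes of a list per comparison by lowest p, the markers *Ms4a1*, *Cd79a*, *Trac*, *Cd3d* and *Mzb1*, and the 3 genes most correlated with *Igkc* and with *Cd4*. The members and lists were chosen with earlier results of these data known. Positions are from GENCODE M39. A marker of the fixed list is not reported here.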

Additional observations from a re-analysis of the deposited data

Results flagged for a closer look

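In 72 groups of 4 libraries, 1 for each member, group and sex, 10 held a library whose CPM lay farther from the other 3 than Dixon's 95% limit allows. The limit is set to flag about 1 in 20 groups when values are normal and groups independent. Members measured in the same library are not independent and low CPM need not be normal, so the count cannot be set against that rate. Female replicate 3 at 3 weeks accounts for 7 of the 10, with *Cd3g* at 1.29 CPM, *Cd8a* at 1.85, *Cd79b* at 6.65, *Ighg2c* at 10.9, *Ighg2b* at 10.5, *Igkc* at 36.1 and *Jchain* at 8.98. The others were *Cd4* in female control replicate 3, at 1.7 CPM against 1.02 to 1.12, *Cd79b* in female replicate 4 at 6 weeks, at 2.1 against 1.8 to 1.83, and *Igkc* in female replicate 2 at 1 week, at 5.1 against 1.91 to 2.03. Male groups of 3 libraries were not screened.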

How the results depend on the processing

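Of the member differences, 126 were tested, and their alternatives gave 2231 values of the same direction on the same side of the limit, 51 no longer past it, 28 newly past it and 68 of the opposite sign. The 2231 include 126 from another scaling per library (TMM). Its medians over all genes equalled those of the main fit in every comparison, so these 126 come close to a repeat of that fit. Those 68 belong to 32 differences, and 0 of them passed the limit before or after the change. With libraries left out in turn, 26 log2 differences crossed 0. For males, uninduced against control, they ran from -0.0256 to 0.14 for *Cd79b*, from -0.176 to 0.0597 for *Ighg2c*, from -0.368 to 0.273 for *Igkc* and from -0.166 to 0.123 for *Jchain*. For males, 1 week against control, they ran from -0.0806 to 0.471 for *Cd8a*. For males, 3 against 1 week, they ran from -0.262 to 0.0798 for *Cd3g* and from -0.336 to 0.118 for *Ighm*. For males, 6 against 1 week, they ran from -0.247 to 0.116 for *Cd3g*, from -0.0811 to 0.471 for *Cd8a* and from -0.0639 to 0.314 for *Cd79b*. For males, 6 against 3 weeks, they ran from -0.177 to 0.209 for *Cd3g*, from -0.546 to 0.0177 for *Cd8a* and from -0.0175 to 1.24 for *Jchain*. For females, uninduced against control, they ran from -0.0172 to 0.162 for *Cd3e*, from -0.184 to 0.0363 for *Cd3g*, from -0.161 to 0.105 for *Cd8a*, from -0.0892 to 0.245 for *Ighg2c* and from -0.0365 to 0.27 for *Igkc*. For females, 1 week against control, they ran from -0.0325 to 0.169 for *Cd8a*, from -0.0421 to 0.203 for *Cd79b* and from -0.175 to 0.16 for *Ighg2c*. For females, 3 against 1 week, they ran from -0.0175 to 0.39 for *Cd3g*. For females, 6 against 3 weeks, they ran from -0.0684 to 0.426 for *Cd8a*, from -0.557 to 0.0237 for *Cd79b*, from -0.915 to 0.388 for *Ighg2c* and from -1.24 to 0.241 for *Ighg2b*. Without replicate 3 at 3 weeks, the female differences of *Ighg2c* and *Ighg2b* at 6 against 3 weeks moved from -0.41 and -0.685 to 0.388 and 0.241. Without replicate 1 at 6 weeks, that of male *Jchain* moved from 0.822 to -0.0175. Placing males by titles and tags gave -0.0366 for *Cd3g*, -0.0254 for *Cd79b* and -0.0243 for *Ighm* in uninduced against control, and -0.378 for *Jchain* at 1 week against control. It also gave -0.0924 for *Cd79b* and -0.222 for *Ighm* at 6 against 1 week, and -0.324 for *Cd4*, -0.104 for *Cd3g* and -0.112 for *Ighm* at 6 against 3 weeks. Placing them by descriptions gave 0.0978 for *Igkc* in uninduced against control and -0.0644 for *Cd79b* at 6 against 1 week. In uninduced males the replicate block gave -0.047 for *Cd79b* and a pseudocount of 0.1 gave 0.0214 for *Igkc*. Female *Ighg2c* was at -0.0151 with edgeR in uninduced against control, and at 0.0774 with a pseudocount of 0.1 and 0.00194 with median-of-ratios scaling at 1 week against control. With libraries left out in turn, the count of members higher ranged from 1 to 2 in males at 3 weeks, 5 to 6 in males at 6 weeks, 0 to 1 in males at 6 against 1 week, 3 to 8 in females at 3 weeks, 5 to 8 in females at 6 weeks and 0 to 3 in females at 6 against 1 week. Males placed by titles and tags had 1, 0 and 0 members higher at 1, 3 and 6 weeks. For males at 6 against 1 week the count was 1, *Ighg2c*, with a pseudocount of 2, with no filter, with median-of-ratios scaling, with DESeq2 and when placed by descriptions. A minimum fold change of 1 on the log2 scale left 4 members in females at 6 weeks and 0 at 6 against 1 week. DESeq2 called 3 in females at 3 against 1 week and 3 at 6 against 1 week, where edgeR called 2. The replicate block changed 0 of the 126 calls, with 6 members higher in males and 7 in females at 6 weeks. Residuals of libraries that share a number had a mean correlation of 0.0132 in males (from -0.134 to 0.256) and 0.0255 in females (from -0.342 to 0.563). The means showed no general pairing by number, but with these ranges they cannot exclude that single pairs were related. The cause of these shifts was not tested. Several members had fewer than 10 reads in single control libraries, which limits the precision of every fold, and groups of 3 or 4 mice limit it further.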

Other observations

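The male library titled as control and described as 6 weeks held *Cd4* at 6.15 CPM, *Ighm* at 15.3, *Ighg2c* at 2.75, *Igkc* at 9.23 and *Jchain* at 3.61. The male library titled as 6 weeks and described as control held 0.995, 4.54, 1.15, 0.517 and 0.239 CPM of the same genes. *Cd79b* was at 0.944 and 0.836 CPM, *Cd8a* at 0.738 and 0.279, and *Cd3g* at 0.41 and 0.0796.

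Among cytotoxic and NK cell genes, 3 of 10 are listed in each sex. *Klrd1*, a receptor chain of NK cells, rose at 6 weeks by log2 differences of 1.03 in males and 1.1 in females (limma adjusted p = 0.0046 and 7.85e-05), and *Nkg7*, a granule protein, by 0.73 and 0.80. Their sum with *Klrk1* was 0.4002 to 0.6889 CPM in female controls and 2.189 to 2.835 at 6 weeks, without overlap.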
